A study of Homo sapiens with 4 samples.

Results

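Protocadherins, the largest branch of the cadherin family, were followed in cells labelled as a human breast cancer line whose transcription factor ELK3 had been knocked down. The members were all probe sets annotated to a single gene whose symbol starts with PCDH, apart from PCDH11X and PCDH11Y. They were 125 of the 44988 probe sets that name 1 gene, and stood for 66 of 18132 genes. Of these, 55 genes with 88 probe sets lie in 3 clusters on chromosome 5 (15 PCDHA, 18 PCDHB and 22 PCDHG genes), and 11 genes with 37 probe sets are non-clustered. A further 8 probe sets name several protocadherin genes at once. They fell outside the rule and are given apart.

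RNA was hybridised from 2 samples of ELK3 shRNA cells (ELK3 KD) and 2 of control shRNA cells, 1 array each. All 4 samples were labelled MDA-MB-231, a triple-negative breast cancer line of mesenchymal shape. All carried a stably integrated retroviral shRNA construct and were selected with puromycin, so that the control cells too had been infected and selected. ELK3 is an ETS-domain transcription factor of the ternary complex group, and the comparison asked how gene expression differs when it is suppressed. The labels call the 2 samples of each group biological repeats but do not say which of the stable lines made for the study each repeat was, so a p-value here measures only the spread between these arrays, and the knockdown lines had been picked for low ELK3. ELK3 itself was read by 2 probe sets. The brighter had log2 values of 8.34 and 8.33 in ELK3 KD, against 10.85 and 10.82 in control cells, which is a difference of -2.50 (SE 0.0764, adjusted p = 4.03e-05 from limma). The other read 4.05 and 4.61 in ELK3 KD, against 7.44 and 7.50 in control cells, a difference of -3.14.

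All values are log2 intensities after the authors' RMA normalization, so a difference of 1 is 2-fold and differences are ELK3 KD minus control. Array medians were 6.27 and 6.27 in ELK3 KD and 6.23 and 6.23 in control cells. "Called" means an adjusted p under 0.05 from limma, adjusted over all genes or all probe sets. Olfactory receptors, which these cells should not express, gave a yardstick for background that was picked with the values already known. The median level of their 359 probe sets was 3.88, and their 95th percentile was 5.705, hereafter the olfactory receptor limit. With 2 arrays against 2, an exact two-sided permutation test of a single value cannot give a p below 0.33.

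The cell type labels were checked against marker lists. Of 10 markers of MDA-MB-231 cells, 9 were called lower in ELK3 KD and none higher, with a median difference of -3.22. The sums of their log2 values were 77.5 to 78.1 in ELK3 KD, against 116 to 117 in control cells. In ELK3 KD, NT5E averaged 3.17, against 11.41 in control cells. AXL averaged 4.23 in ELK3 KD and 11.97 in control cells, and IL6 averaged 3.98 in ELK3 KD and 9.01 in control cells. NT5E, AXL and IL6 were thus below the olfactory receptor limit in ELK3 KD, but not in control cells. PLAU averaged 5.71 in ELK3 KD and 12.25 in control cells. The other markers of the list stayed well above that limit in ELK3 KD, with averages from 7.67 (CD44) to 12.49 (VIM). In control cells the same genes averaged 10.86 (MSN) to 13.51 (VIM). ESR1, PGR and CDH1, known to be low in this line, were not called and differed by -0.22 to -0.07. Of 8 measured markers of HEK293 cells, the human embryonic kidney line from which many virus packaging cells derive, 6 were called higher and none lower, with a median difference of 1.96 and summed log2 values of 65.1 to 65.5 in ELK3 KD, against 43.0 to 44.4 in control cells. NEFL (7.58), SOX11 (5.81), DPYSL3 (3.63) and CKB (2.64) had the largest differences, and LIN28B (1.27) and GATA2 (0.57) were the others called higher. NEFM and PAX2, a kidney gene, were not called. PAX2 averaged 4.58 in ELK3 KD and 4.59 in control cells, and NEFM averaged 3.97 in ELK3 KD and 3.81 in control cells. All 4 averages were below the olfactory receptor limit. Of 10 neural markers, 2 were called higher (MAP2 by 2.76 and SYT1 by 0.91) and 1 lower (TUBB3, by -1.22). Their summed levels were 57.6 to 58.1 in ELK3 KD, against 55.5 to 55.6 in control cells. All counts of these marker lists stand beside 26% of all genes called higher and 23.5% called lower in ELK3 KD. The MDA-MB-231 and HEK293 lists moved with both arrays of a group, so no result below could be given without them. Their part in the protocadherin results was not tested, nor was whether the ELK3 KD cells were of the labelled line. In bulk RNA, fewer cells of a type and less RNA per cell cannot be told apart.

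Protocadherins are single-pass membrane proteins with extracellular cadherin repeats, which bind the same protocadherin on a neighbouring cell and carry cytoplasmic tails that differ between subgroups. Each clustered gene has its own promoter and first exon. PCDHA and PCDHG transcripts join 1 such variable exon to constant exons that all genes of the cluster share, whereas each PCDHB gene is complete in its single exon, and a neuron uses only a few of the promoters, which gives it a surface identity. The non-clustered genes are spread over the genome, and several of them are best known from axon growth, synapses and silencing by promoter methylation in tumours. In GRCh38.p14 the clusters follow one another on chromosome 5, with PCDHA at chr5:140786140-141012347, PCDHB at chr5:141051374-141249365 and PCDHG at chr5:141330514-141512975.

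Most clustered promoters carry the conserved sequence element with a CGCT core, near which CTCF can bind. Promoter sequence from RefSeq (GRCh38.p14, 250 bases before to 50 after each annotated start) was matched to 56 of the 66 genes. CGCT itself, searched on both strands, was in 12 of 13 PCDHA, 14 of 14 PCDHB, 20 of 20 PCDHG and 8 of 9 non-clustered promoters, but also in 70% of all 35116 promoters. Longer runs around it, picked by looking at these promoters, were rarer. GGTGGCGCT was in 13 of 14 PCDHB promoters and in 0.501% of all promoters. GATGTCGCT was in 9 of 13 PCDHA promoters (0.105% of all), and GCGCCGCTG in 10 of 20 PCDHG promoters (1.28% of all). Each of these 3 runs contains CGCT, was searched on both strands, and was in no promoter of the other clusters or of the non-clustered genes. The ETS-type run CCGGAAGT, on either strand, was in none of the 56 windows and in 4.14% of all promoters, which says only that these letters are not in these windows. The PCDHB sequences below are shown because their genes moved in opposite directions or not at all, with the shared run in capitals, from 5′ to 3′ on the plus strand.
PCDHB2: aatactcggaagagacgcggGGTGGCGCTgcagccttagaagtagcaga
PCDHB12: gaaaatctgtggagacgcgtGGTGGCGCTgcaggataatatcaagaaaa
PCDHB3: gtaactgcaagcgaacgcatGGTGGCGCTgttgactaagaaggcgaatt
PCDHB13: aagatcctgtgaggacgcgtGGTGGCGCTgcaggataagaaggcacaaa
PCDHB14: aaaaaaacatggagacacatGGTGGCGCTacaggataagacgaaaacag

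They lie at chr5:141094535-141094583 (PCDHB2), chr5:141208634-141208682 (PCDHB12), chr5:141100384-141100432 (PCDHB3), chr5:141213856-141213904 (PCDHB13) and chr5:141223254-141223302 (PCDHB14). The same 9 capital letters thus stand in front of PCDHB2 and PCDHB12, which were called higher in ELK3 KD, of PCDHB3, which was not called, and of PCDHB13 and PCDHB14, which were called lower. The PCDHA and PCDHG sequences stand for the genes called lower, not called, or split between probe sets, with capitals marking the run of their own cluster, or CGCT alone in PCDHA11, whose promoter lacked the longer run.
PCDHA4: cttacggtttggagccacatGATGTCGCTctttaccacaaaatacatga
PCDHA5: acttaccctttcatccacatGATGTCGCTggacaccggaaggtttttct
PCDHA11: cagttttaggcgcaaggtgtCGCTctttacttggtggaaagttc
PCDHGA11: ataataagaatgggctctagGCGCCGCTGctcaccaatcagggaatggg
PCDHGB1: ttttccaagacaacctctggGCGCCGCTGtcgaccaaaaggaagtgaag
PCDHGA7: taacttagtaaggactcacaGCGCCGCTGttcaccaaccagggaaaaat

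Their positions are chr5:140806970-140807018 (PCDHA4), chr5:140821533-140821581 (PCDHA5), chr5:140868879-140868922 (PCDHA11), chr5:141420964-141421012 (PCDHGA11), chr5:141350017-141350065 (PCDHGB1) and chr5:141382641-141382689 (PCDHGA7), all on the plus strand. Within the shared runs, CGCT began 38 to 81 bases before the annotated start in PCDHA (9 genes, median 48) and 40 to 95 before it in PCDHG (10 genes, median 64). In PCDHB it lay between 79 bases before and 3 bases after the start (13 genes, median 61 before).

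**Figure D1:**
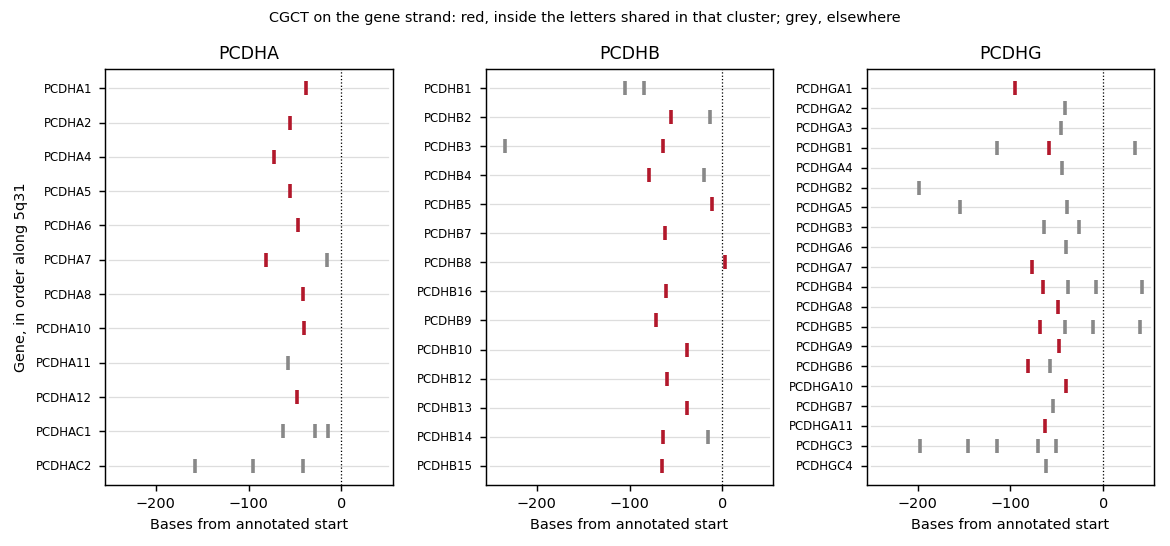
Each row is a clustered gene with a matched promoter that holds CGCT on the gene's strand (12 of 13 PCDHA, 14 of 14 PCDHB and 20 of 20 PCDHG), in order along the chromosome, and each mark is one CGCT, placed by its distance in bases from the annotated start (0, dotted line). Red marks lie inside the 9-letter run shared in that cluster, grey marks elsewhere, and every red mark except that of PCDHB8, at 3 bases after the start, lies before it.

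Over all genes, read from the brightest probe set of each, 26% were called higher and 23.5% lower in ELK3 KD, with a median difference of -0.05. Against that background, 6 of the 11 non-clustered genes were called higher and none lower, with a median difference of 0.27. Of the 55 clustered genes, 5 were called higher and 11 lower, with a median of -0.06, so that 29.1% of them were called in either direction. At an unadjusted p under 0.05 from limma, 6 non-clustered genes were higher and 0 lower, and the methods' t-test called 0 lower. Only 2 of these 11 genes had a control mean at or above the olfactory receptor limit, which left little room for a fall to be seen. Over all probe sets naming 1 gene, 24.6% were called higher and 24.3% lower. Of the 37 non-clustered probe sets 20 were called higher and none lower (2 were lower at an unadjusted p under 0.05), and of the 88 clustered ones 9 were called higher and 17 lower.

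All changes past 4-fold were rises, but few members had control levels from which such a fall could be seen. More than 4-fold higher in ELK3 KD were 12 of the 125 protocadherin probe sets (10 non-clustered and 2 of PCDHB2), against 2.74% of all probe sets. None was more than 4-fold lower, against 2.27% of all. However, only 12 of the 125 had a control mean at or above the olfactory receptor limit. In the rest a 4-fold fall could hardly have been seen, so its absence is not read as a result. The sets more than 4-fold higher are not separate members, since they read PCDH7, PCDH9, PCDH10, PCDH18 and PCDHB2 repeatedly. With each gene read from its brightest set, only PCDH7, PCDH9 and PCDHB2 rose past 4-fold, 3 among 66, and 0 fell past it. The share of all genes past 4-fold was not taken. The brightest set was chosen on the mean of all 4 arrays, so the ELK3 KD values took part in the choice. The PCDH7 set with the highest control mean (4.85) differed by only 0.75. The corresponding sets of PCDH9 and PCDHB2 differed by 5.35 and 4.32. Many members were dim. Both group means were below the olfactory receptor limit in 75 of 88 clustered and 25 of 37 non-clustered probe sets, against 36.8% of all probe sets, and small differences between such values were therefore read near background. Centring each array on its median lowered every gene's difference by 0.137. It changed the clustered calls to 4 higher and 20 lower and the non-clustered calls to 5 higher and none lower, beside 21.4% higher and 37.1% lower over all genes under the same centring. The share of clustered genes called lower was then 36.4%, about that of all genes. The clustered genes called lower also depended on single arrays. They were 6 without control replicate 2, 4 without ELK3 KD replicate 1 and 3 without ELK3 KD replicate 2, and those called higher were 3 without either ELK3 KD replicate.

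Among the non-clustered genes, the delta-1 protocadherins PCDH1, PCDH7 and PCDH9, whose tails hold a motif that binds protein phosphatase 1, included the largest differences. PCDH9 (chr13:66302834-67230336), a neuronal adhesion protein, had the largest difference of any protocadherin probe set. That set had log2 values of 11.06 and 11.13 in ELK3 KD, against 4.10 and 4.87 in control cells, 97.7-fold higher (difference 6.61, SE 0.255, adjusted p = 7.30e-05 from limma). Its brightest probe set read 10.99 and 11.13 in ELK3 KD, against 5.79 and 5.63 in control cells (difference 5.35, SE 0.101, adjusted p = 1.99e-05). The third read 6.48 and 6.27 in ELK3 KD, against 2.40 and 2.61 in control cells (difference 3.87, adjusted p = 4.37e-05). All 3 probe sets thus had both ELK3 KD arrays far above both control arrays, where the values lay near or below the olfactory receptor limit.

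PCDH7 (chr4:30720369-31146800), known from neurons and from metastatic breast and lung cancer cells, was called higher by each of its 5 probe sets. The set with the largest difference read 8.17 and 7.88 in ELK3 KD, against 2.85 and 2.53 in control cells, 40.5-fold higher (difference 5.34, SE 0.155, adjusted p = 3.67e-05 from limma). The next read 6.97 and 7.0 in ELK3 KD, against 2.59 and 2.23 in control cells (difference 4.57, adjusted p = 3.93e-05). In both, the control values were at the level of olfactory receptor probe sets. A further set read 7.21 and 6.31 in ELK3 KD, against 3.72 and 3.83 in control cells, a difference of 2.98 with a wider spread between the ELK3 KD arrays (adjusted p = 0.00106). The remaining sets differed by 0.75 and 0.36. PCDH7 transcripts differ in the exons of their tails, and which of them each probe set reads is not in the files used here. PCDH1 (chr5:141853090-141878410), studied mainly in airway epithelium, was called higher by 1 of 4 probe sets, which read 4.37 and 4.55 in ELK3 KD, against 3.6 and 3.76 in control cells (difference 0.77, adjusted p = 0.00328). The other sets differed by -0.06 to 0.01, their groups overlapped, and the brightest averaged 6.13 in ELK3 KD and 6.19 in control cells.

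The delta-2 protocadherins PCDH8, PCDH10, PCDH17, PCDH18 and PCDH19 have tails that in several members bind the actin-regulating WAVE complex. PCDH18 (chr4:137518918-137532494), which binds the reelin adaptor Dab1 in mouse, was called higher by 4 of 5 probe sets with very unequal sizes. The 2 sets with large differences read 7.28 and 7.04 in ELK3 KD against 3.62 and 3.36 in control cells, and 6.41 and 6.17 in ELK3 KD against 2.98 and 3.26 in control cells. They were 12.7-fold (difference 3.67, SE 0.135, adjusted p = 6.51e-05 from limma) and 8.99-fold higher (difference 3.17, adjusted p = 0.0001). The other called sets differed by 0.39 and 0.27 only, and the last, at 5.06 and 4.88 in ELK3 KD against 4.69 and 4.67 in control cells, missed the threshold (difference 0.29, adjusted p = 0.0532). The set that differed by 0.27 was the brightest on average and so stands for PCDH18 in the gene count. Read from it alone, the call was lost with any 1 array left out and under 4 other settings, whereas the sets with large differences kept it in every setting on single probe sets that retained them.

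PCDH10 (chr4:133149294-133208606), which guides axon growth in mouse and is often silenced by methylation in tumours, was called higher by all 4 of its probe sets. The most changed set read 7.01 and 6.0 in ELK3 KD, against 3.71 and 4.05 in control cells (difference 2.62, SE 0.343, adjusted p = 0.00262 from limma). Its ELK3 KD arrays were about 1 log2 unit apart but both were above the control arrays. A second set read 4.65 and 4.59 in ELK3 KD, against 2.42 and 2.37 in control cells (difference 2.22, adjusted p = 6.06e-05), and remained below the olfactory receptor limit in all 4 arrays. The other sets differed by 0.79 and 0.34. PCDH19 (chrX:100291644-100410273), the gene of an inherited epilepsy, had 1 set called higher, with 4.45 and 4.17 in ELK3 KD against 3.68 and 3.61 in control cells (difference 0.67, adjusted p = 0.00773). In the gene-level fit this call was lost without control replicate 2 (adjusted p = 0.0544). Its second set, at 3.36 and 3.49 in ELK3 KD against 3.74 and 3.58 in control cells, had the opposite sign and was not called (difference -0.23, adjusted p = 0.115). All PCDH19 values were below the olfactory receptor limit.

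PCDH8 (chr13:52842889-52848640), known as paraxial protocadherin in the embryo, and PCDH17 (chr13:57630108-57729311), a synaptic protocadherin in mouse, were called by none of their 2 and 4 probe sets. Their values ran between 2.42 and 3.65 for PCDH8 and between 2.23 and 3.16 for PCDH17, and the PCDH17 differences between -0.37 and -0.05. These levels were those of olfactory receptor probe sets in both groups. PCDH20 (chr13:61409685-61415849), which lies between PCDH17 and PCDH9 on chromosome 13 and is silenced by methylation in some lung tumours, was called higher by both of its sets. The brighter read 7.17 and 6.92 in ELK3 KD, against 5.42 and 5.53 in control cells, 2.96-fold higher (difference 1.57, SE 0.115, adjusted p = 0.000416 from limma). The dimmer read 4.70 and 4.92 in ELK3 KD, against 3.79 and 3.67 in control cells (difference 1.08, adjusted p = 0.00119). PCDH12 (chr5:141943581-141958202), an endothelial protocadherin, averaged 5.31 in ELK3 KD and 5.24 in control cells and was not called. PCDH15 (chr10:53802771-55627942), which forms the tip link of inner ear hair cells with cadherin 23, had 5 sets between 2.01 and 3.71, none called.

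**Figure D2:**
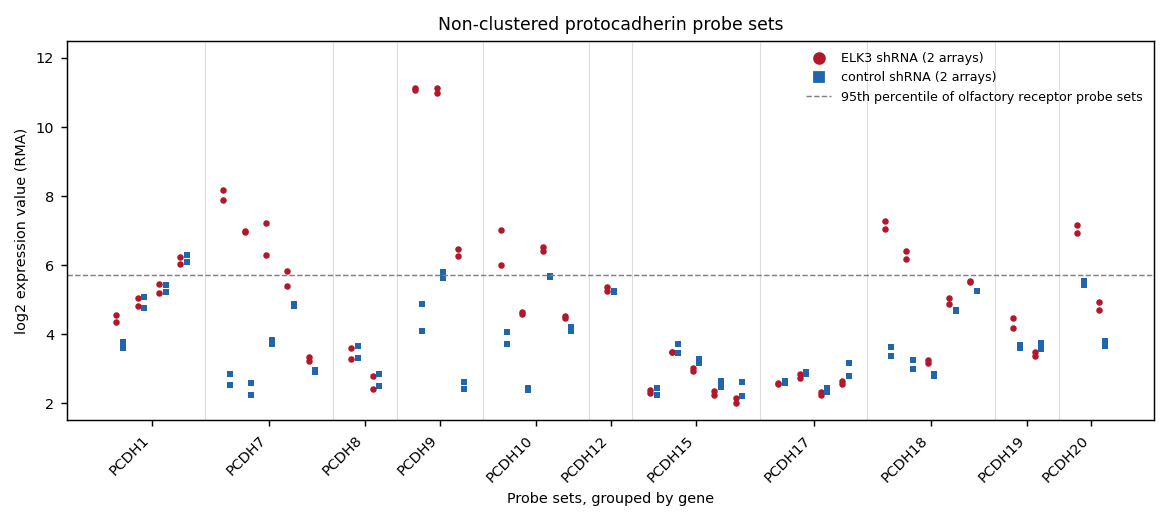
Points are the log2 expression values (RMA) of each non-clustered probe set in each array, grouped by gene, with red circles for the 2 ELK3 shRNA arrays and blue squares for the 2 control shRNA arrays, and the dashed line marks the olfactory receptor limit (5.705). The ELK3 shRNA points of PCDH9 reach 11.13, and 12 of 37 sets have an ELK3 shRNA mean above the line, against 2 with a control mean above it.

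In the PCDHB cluster, 5 of 18 genes were called higher and 5 lower, which in either direction is near the shares of 26% and 23.5% over all genes. PCDHB2 stood apart from its neighbours. Its brighter probe set read 8.42 and 8.37 in ELK3 KD, against 3.30 and 2.96 in control cells, 38.4-fold higher (difference 5.26, SE 0.131, adjusted p = 2.64e-05 from limma). The other read 7.70 and 7.85 in ELK3 KD, against 3.36 and 3.56 in control cells, 20-fold higher (difference 4.32, adjusted p = 2.66e-05). The gene next to it, PCDHB3, had 3 sets of its own that differed by 0.01 to 0.07 and lay between 2.17 and 3.67 in all arrays. A probe set naming both genes read 6.89 and 6.63 in ELK3 KD, against 4.80 and 4.38 in control cells (difference 2.17, adjusted p = 0.00054 over the probe sets naming 1 or more genes), and which of the 2 genes it read cannot be told from its value.

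PCDHB12 was called higher by both of its probe sets. The brighter read 5.94 and 6.03 in ELK3 KD, against 5.09 and 4.81 in control cells (difference 1.04, SE 0.120, adjusted p = 0.00174 from limma), and the other differed by 1.05 (adjusted p = 0.00282). Immediately downstream, PCDHB13 and PCDHB14 were lower. PCDHB14 had the largest fall of any protocadherin, at 3.11 and 3.22 in ELK3 KD against 4.72 and 4.82 in control cells (difference -1.61, SE 0.0889, adjusted p = 0.000188), with all 4 values below the olfactory receptor limit. PCDHB13, the PCDHB gene with the highest mean level over the arrays, read 5.57 and 5.28 in ELK3 KD, against 6.61 and 6.27 in control cells (difference -1.02, SE 0.161, adjusted p = 0.00513). Of its other sets 3 were called lower, by -0.74, -0.69 and -0.46, and 1 was not called (0.12). The remaining called genes of the cluster were PCDHB18P (0.89), PCDHB8 (0.73) and PCDHB17P (0.27), which were higher, and PCDHB10 (-0.49), PCDHB7 (-0.47) and PCDHB9 (-0.41), which were lower in ELK3 KD. The call of PCDHB17P held over genes (adjusted p = 0.0436) but not over probe sets (adjusted p = 0.051). PCDHB17P and PCDHB18P are pseudogenes, and PCDHB genes are close copies of one another, so a probe set may also read RNA of a neighbour.

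In the PCDHG cluster none of 22 genes was called higher, also at an unadjusted p under 0.05 from limma, and 4 were called lower, with differences from -0.60 to 0.13 (PCDHGB1 and PCDHGC3). PCDHGB4, with the highest mean level in the cluster, read 6.56 and 6.66 in ELK3 KD, against 6.69 and 6.54 in control cells, and its groups overlapped. PCDHGA7 was called lower by both of its sets, the brighter at 5.84 and 5.87 in ELK3 KD against 6.45 and 6.26 in control cells (difference -0.50, SE 0.0974, adjusted p = 0.0106 from limma). PCDHGB1, PCDHGA4 (-0.37) and PCDHGA6 (-0.32) were the other genes called lower. For PCDHGA6 this held over genes (adjusted p = 0.0484) but not over probe sets (adjusted p = 0.0524). The dimmer set of PCDHGB1 differed by -1.07, but its call was lost without control replicate 2 (adjusted p = 0.19), without ELK3 KD replicate 1 (adjusted p = 0.232) and without ELK3 KD replicate 2 (adjusted p = 0.0753). Counted by probe set, 2 of the 3 sets of PCDHGA11 and 1 of the 2 sets of PCDHGB5 were called higher. One set of PCDHGA11 read 5.01 and 4.68 in ELK3 KD, against 3.59 and 3.71 in control cells (difference 1.20, SE 0.133, adjusted p = 0.0015), although the methods' t-test did not call it (adjusted p = 0.067). A second was also called higher (difference 0.73, adjusted p = 0.00133 from limma). The brightest, which stands for PCDHGA11 in the gene count, differed by 0.08 and was not called (adjusted p = 0.629). The dimmer set of PCDHGB5 read 3.27 and 3.02 in ELK3 KD, against 2.78 and 2.61 in control cells (difference 0.45, adjusted p = 0.0295).

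The PCDHA cluster split by the kind of probe set. Read from probe sets naming 1 gene, none of 15 genes was called higher by limma (1 was at an unadjusted p under 0.05), PCDHA5 (-0.47) and PCDHAC1 (-0.30) were called lower, and all differences lay between -0.47 and 0.29 (PCDHA5 and PCDHAC2). PCDHA11, with the highest mean level in the cluster, read 6.66 and 6.73 in ELK3 KD, against 6.66 and 6.52 in control cells (difference 0.10, adjusted p = 0.397 from limma). The brighter set of PCDHA4 differed by 0.27 and the other by -0.05, and neither was called. By contrast, 6 probe sets that each name the same 15 PCDHA genes were all called higher, in a fit over the 46820 probe sets naming 1 or more genes, chosen after the data were seen, in which 24.5% were called higher. The most changed read 7.47 and 7.26 in ELK3 KD, against 2.38 and 2.58 in control cells, 29.5-fold higher (difference 4.88, SE 0.117, adjusted p = 2.56e-05). The next read 7.78 and 7.6 in ELK3 KD, against 3.31 and 3.54 in control cells, 19.3-fold higher (difference 4.27, adjusted p = 3.51e-05). Both groups were thus apart by far more than the spread within either. The other sets of this kind differed by 3.41, 2.68, 1.43 and 1.06, and 1 set naming PCDHA3 and PCDHA2 by 1.11 (adjusted p = 0.000562). Each of these calls held with any 1 array left out. Which of the 15 genes gave this RNA, and which exon these sets read, is not in the files used here, and no single-gene set of the cluster showed a difference of that size.

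**Figure D3:**
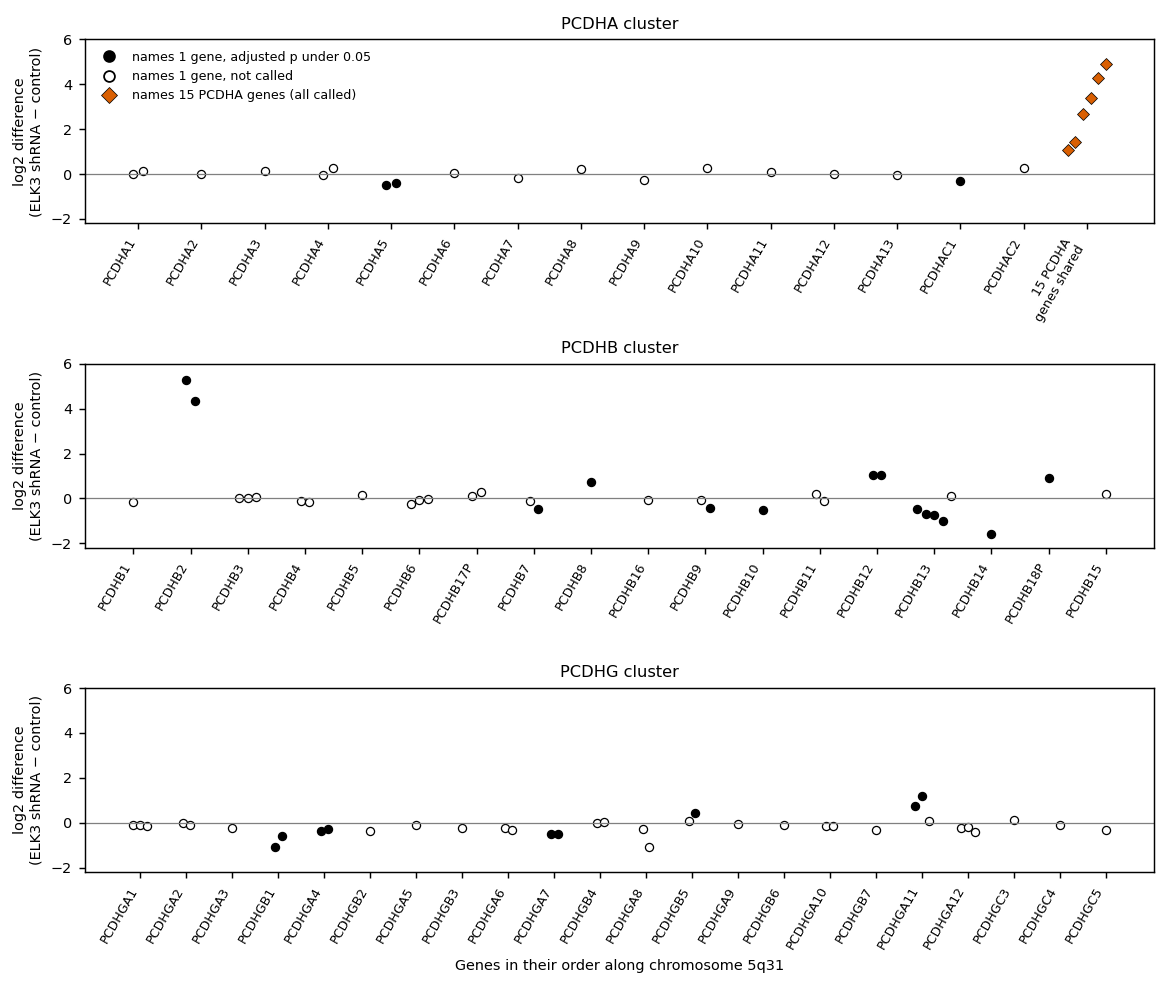
Each point is a probe set of the PCDHA, PCDHB or PCDHG cluster, placed by gene in order along chromosome 5, with the log2 difference (ELK3 shRNA minus control shRNA) on the vertical axis. Filled circles were called, open circles were not, and orange diamonds are the 6 sets naming 15 PCDHA genes, at 1.06 to 4.88, whereas sets naming 1 PCDHA gene lie between -0.47 and 0.29.

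**Figure D4:**
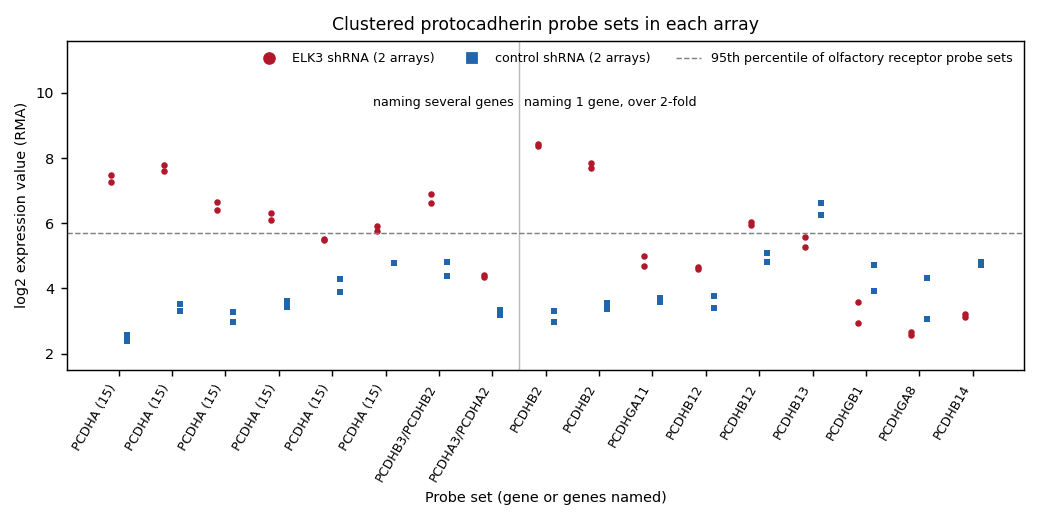
Points are the log2 values (RMA) in each array of the 8 probe sets naming several protocadherin genes (left of the line) and of the clustered sets naming 1 gene with a difference over 2-fold (right of it), with red circles for ELK3 shRNA, blue squares for control shRNA and a dashed line at the olfactory receptor limit (5.705). PCDHGA8, whose control arrays read 3.06 and 4.31, is the set shown that was not called (adjusted p = 0.0789 from limma).

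Genes related to protocadherins by structure or function were counted in the same fit over all genes. Of 17 larger cadherin relatives, 6 were called higher and 3 lower, with a median difference of -0.02 beside -0.05 over all genes. Over all genes 26% were called higher and 23.5% lower, and the counts of the lists that follow are to be read beside these shares. FAT3, a giant cadherin of retinal neurons in mouse, averaged 8.09 in ELK3 KD and 3.51 in control cells (difference 4.58), and the planar polarity cadherins CELSR1 and CELSR2 were higher by 2.41 and 0.88. FAT1, an adhesion and growth-control cadherin, fell by 0.87. Of 17 measured regulators of the clustered promoters, 5 were called higher and 5 lower, with a median of 0.04. The cohesin subunit STAG2 (1.17), the methyltransferase DNMT3B (1.13) and the corepressor TRIM28 (0.87) were higher, and DNMT1, which maintains methylation, was lower (-0.70). For DNMT3B this differs from the paper, which reports a level in ELK3 KD cells close to that in control cells. CTCF, named after its value was seen, averaged 8.55 in ELK3 KD and 8.54 in control cells.

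Of 17 measured genes listed as intracellular partners of protocadherins, 4 were called higher and 9 lower, with a median of -0.31. The list also held 2 proteases that are not partners of the tails, ADAM10 and PSEN2 (-0.86), both called lower. The WAVE complex members CYFIP2 (3.98) and WASF3 (1.03) and the kinase FYN (1.58) were higher, and ADAM10, a protease that sheds protocadherin ectodomains, was lower (-1.52). Of 10 measured partners of PCDH15 in hair cells, 3 were called higher and none lower, with a median of 0.04. They were ADGRV1, an adhesion receptor of the hair bundle (4.78), CIB2, part of its transduction complex (2.59), and the scaffold USH1C (0.35), while PCDH15 itself stayed at background levels. Of 22 measured genes flanking the clusters on 5q31, 6 were called higher and 6 lower, with a median of -0.07. The largest differences there were those of SPRY4, a feedback inhibitor of receptor kinases (-2.83), ARAP3, a regulator of small GTPases (-1.25), the mitochondrial histidyl-tRNA synthetase HARS2 (1.00) and the growth factor FGF1 (-0.80).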

How the data were processed

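Total RNA of 4 samples labelled MDA-MB-231, 2 of ELK3 shRNA and 2 of control shRNA, was measured on 1 array each. For 49395 probe sets the deposited values were log2 intensities, summarised by RMA, which the submitters' processing notes name together with Affymetrix Expression Console, with no version. The paper's methods name an Illumina BeadChip, but the probe set names are Affymetrix ones. RMA includes quantile normalization and compresses low values, so folds of dim genes may be understated and a change in total RNA would not be seen. Scanner files were not used here.

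Probe sets were named from the platform annotation, with 1832 naming several genes, 2473 none and 102 being controls; 44961 of the 44988 naming 1 gene matched RefSeq (GRCh38.p14). A gene was read from its probe set with the highest mean over all 4 arrays, with no filter on dim genes. Linear models without a block were fitted in limma (version 3.58.1, under R 4.3.3) with eBayes moderation, and p-values were adjusted by Benjamini-Hochberg over either 18132 genes or 44988 probe sets and called at 0.05; the code was tested on simulated data. Replicates correlated at r = 0.998 in ELK3 KD and 0.995 in control arrays. Promoter sequences were read in Python 3.11.15, and figures drawn with matplotlib 3.10.9.

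The members and lists were chosen with earlier results of these data known. Named were ELK3, each non-clustered gene, clustered genes called with a difference of at least 1, the brightest gene of each cluster, the ends of ranges, and up to 4 most changed called genes of a related list. Other genes, single probe sets and the motif letters were singled out after their values were seen. The fit over 46820 probe sets naming 1 or more genes was also chosen then. Among the genes, these were PCDHA4, PCDHA5, PCDHAC1, PCDHB3, PCDHGA4, PCDHGA6, PCDHGA7, PCDHGA8, PCDHGA11, PCDHGB1, PCDHGB5, PAX2, LIN28B, GATA2, NEFM, PSEN2 and the smaller PCDHB changes. The alternatives tried were other probe set choices, filters, scalings, variance settings, thresholds, the replicate number as a block, the methods' t-test and each array left out.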

Additional observations from a re-analysis of the deposited data

How the results depend on the processing

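Read from 1 probe set a gene as in the gene counts, ELK3, PCDH7, PCDH9, PCDH10, PCDH20, PCDHB2 and PCDHB14 kept their direction and their call under every alternative run for them. The filter on features above the median level retained only ELK3 and PCDH9 of these genes. PCDH10, at 0.79 in the gene counts, did not pass the 2-fold threshold. Of the other sets of these genes, the methods' t-test lost those of 2.62 in PCDH10 (adjusted p = 0.097), 2.98 in PCDH7 (0.0709) and 1.08 in PCDH20 (0.0555). The others are given by setting. As reported, 5 clustered genes were called higher, 11 lower and 6 non-clustered higher, with 29 probe sets higher and 17 lower. Keeping only features above the median level over all 4 arrays left 0, 0 and 1 (2 and 0 probe sets). Those left were PCDH9 and 2 of its sets, with control means of 5.71 and 4.49, below the control array medians of 6.23. They passed this filter only through their ELK3 KD values. A threshold of 0.01 gave 3 and 4 clustered genes and 5 probe sets lower. A difference over 2-fold besides the call gave 2, 2 and 3 (17 and 3 probe sets). The methods' t-test gave 2 and 1 clustered genes (15 and 3 probe sets). Reading a gene from its dimmest probe set gave 5 clustered genes lower and turned PCDH19 to -0.23 (adjusted p = 0.14) and gave PCDH1 a called 0.77 in place of -0.06, and centring each array on its median gave 20 lower, since it lowers all differences. Leaving out each array in turn gave 3 to 5 clustered genes higher, 3 to 10 lower, 4 to 5 non-clustered higher, and 23 to 24 probe sets higher and 5 to 18 lower. No non-clustered gene was called lower under any setting. Only 2 of the 11 had a control mean at or above the olfactory receptor limit. All settings share these low control levels, so their agreement on this adds no support. With the replicate number as a block, 3 clustered genes were called higher and 8 lower and 5 non-clustered higher, but the numbers pair nothing: replicate 1 minus 2 in ELK3 KD and in control arrays correlated at 0.015. PCDH18, read from its brightest set, lost its call in 8 settings, PCDH19 in 4 (the reversed one included), and PCDHB12 and PCDHB13 under the methods' t-test. Where no cause is named, the cause was not tested. Most clustered probe sets lie below the olfactory receptor limit, which limits what these arrays can show of them.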
